A study of Mus musculus with 13 samples.

Results

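KAP1 occupancy of H3K9me3-marked chromatin within genes was examined in the murine hepatoma line Hepa 1-6. A KAP1 peak was taken when it shared at least 1 bp with an H3K9me3 region and none with an H3K27ac or H3K4me1 region. Its centre also had to lie in the body of a protein-coding gene, more than 3 kb from every protein-coding transcript start (mouse assembly mm9, GENCODE M1 annotation). These criteria were met by 913 of the 12470 KAP1 peaks (7.32%), within 745 of 22367 protein-coding genes (3.33%). H3K9me3 without an active mark was present at 4412 KAP1 peaks in all, of which 673 were centred within 3 kb of a start and 2826 outside protein-coding genes. The position in H3K9me3 and the distance from starts chose the 913 sites and are therefore not findings about them.

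KAP1, the product of Trim28, is a corepressor without sequence-specific DNA binding of its own. It is tethered to DNA by KRAB zinc finger proteins, whose arrays of C2H2 fingers read the sequence, and it acts as a scaffold for the histone methyltransferase SETDB1 and for HP1 proteins. The resulting H3K9me3 domains are best known at transposable elements, at imprinted control regions and over the 3′ ends of the zinc finger genes themselves. H3K27ac and H3K4me1 mark active regulatory chromatin.

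KAP1, H3K9me3, H3K27ac and H3K4me1 were profiled by ChIP-seq in cells under standard culture. PolII and PolIII were profiled in cells taken 5 days after delivery of a hairpin against KAP1 (Kap1 KD) or of a control, which was a control hairpin per the labels and the empty vector per the methods. Each list came from 1 library, so no value has a replicate error, and the depth of the libraries is unknown. The KAP1 and H3K9me3 lists describe cells under standard culture only, so the lists do not show whether KAP1 or H3K9me3 was lost at any site under Kap1 KD. The degree of knockdown cannot be read from them either. The Trim28 promoter carried a PolII peak in both conditions, and the gene held none of the 913 sites. For the identity of the line, H3K27ac was listed at the promoters of the hepatocyte lineage genes Alb, Afp, Trf, Hnf4a and Foxa2, and at 1 of 6 markers of other cells (Col1a1). Apoa1, Apoa2, Ttr, Serpina1a and a second entry of Trf carried none.

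Some features of the lists touch the results below. On chromosomes 9, 12, 14, 16 and X, the sites numbered 0.221 to 0.373 per Mb of eligible gene body, against 0.837 to 1.82 on the other autosomes. The whole KAP1 list was thin there too, at 0.966 to 1.89 peaks per Mb of chromosome against 4.18 to 9.29. The sites made up 4.31 to 6.83% of the KAP1 peaks of those 5 chromosomes and 5.07 to 11.4% of those on the others. In the control PolIII list, 2480 of 2772 peaks (89.5%) lay on chromosomes 1 to 4, which hold 26.0% of the eligible gene-body sequence and 29.2% of the sites. Leaving out each chromosome in turn is part of the alternatives.

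Copies of interspersed sequence in introns and zinc finger coding sequence in last exons recurred among the sites, and the stretches below are shown because they carry that division. The first 3 lines are the 30 bases held by the most sites of the 3 largest groups of related sites (families, defined with the values below), and the fourth is the most shared run of the 47 sites in zinc finger exons, held by 2 of them. CpG dinucleotides are in capitals. Each was read 5′ to 3′ from the mm9 genome at a site that holds it, in an intron of Rev3l (chr10:39484114-39484143, minus strand), Galk2 (chr2:125787198-125787227, plus strand) and Serpinb3b (chr1:109146470-109146499, minus strand), and in the last exon of Zfp420 (chr7:30700375-30700404, plus strand).
family 1: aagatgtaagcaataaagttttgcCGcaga
family 2: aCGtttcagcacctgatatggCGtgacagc
family 3: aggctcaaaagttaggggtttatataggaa
zinc finger exons: aatccacactggagagaaaccctatgagtg

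The second set shows the exact centre of sites with the highest KAP1 score, 3 in coding exons and 1 in an intron, all on the plus strand of the genome. Zfp697 lies at chr3:98232117-98232146, Scrt1 at chr15:76349248-76349277, Scrt2 at chr2:151919260-151919289 and Spred2 at chr11:19920470-19920499.
Zfp697: gCGtgcacaCGggCGagaagccctacatgt
Scrt1: tCGtagtgcttgttgagataagacttgagc
Scrt2: aggcctaCGtgtccatgccCGCGctCGcca
Spred2: aCGctgggtttataggcttctgaggcctga
The run from the zinc finger exons and the centre of the Zfp697 site each hold 1 match to the codons of the linker that joins neighbouring C2H2 fingers. The other 6 runs hold none.

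The sites were mostly intronic, but exons were over-represented among them. Of the 913 centres, 741 lay in introns and 172 (18.8%, 95% Wilson interval 16.4 to 21.5%) in exons, 146 of these in coding sequence. Exons make up 5.51% of the eligible gene-body bases and coding sequence 2.49%, so the share of the sites was 3.42 and 6.42 times the share of the bases. Intervals cover counting error over peaks only.

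The KAP1 peaks of gene bodies in other chromatin provided the comparison, since the criteria asked for a gene body and not for an exon. With an active mark and no H3K9me3, 40 of 768 gene-body peaks were exonic (5.21%, 3.85 to 7.01%). The odds ratio was 4.22 (95% interval 2.95 to 6.05) in a two-sided Fisher's exact test, with a p-value of 1.1e-17 after Benjamini-Hochberg adjustment over 13 tests. With none of the 3 marks, 43 of 429 were exonic (10.0%, 7.53 to 13.2%), an odds ratio of 2.08 (1.46 to 2.97) with an adjusted Fisher's exact p of 6.6e-05. Peaks are not replicates, and these p-values describe positions in the lists. When any base of a peak in an exon counted, in place of its centre, the counts were 231 of 913 and 133 of 768 and the odds ratio fell to 1.62 (adjusted Fisher's exact p = 0.00022). Against peaks with no mark, 85 of 429 counted in this way and the odds ratio fell to 1.37 (adjusted Fisher's exact p = 0.045). For coding sequence alone the odds ratio against active peaks rose to 7.93, and against peaks with no mark it was 2.28. A further setting, added with the values in view, left out the peaks in genes with a zinc finger symbol. The odds ratios were then 3.13 and 1.74, with adjusted Fisher's exact p-values of 5.0e-10 and 0.0085, and both still passed the test. Of the 125 exonic sites left, 17 held linker codons, so finger genes were not all removed. The comparison without these 17 was not tested.

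**Figure D1:**
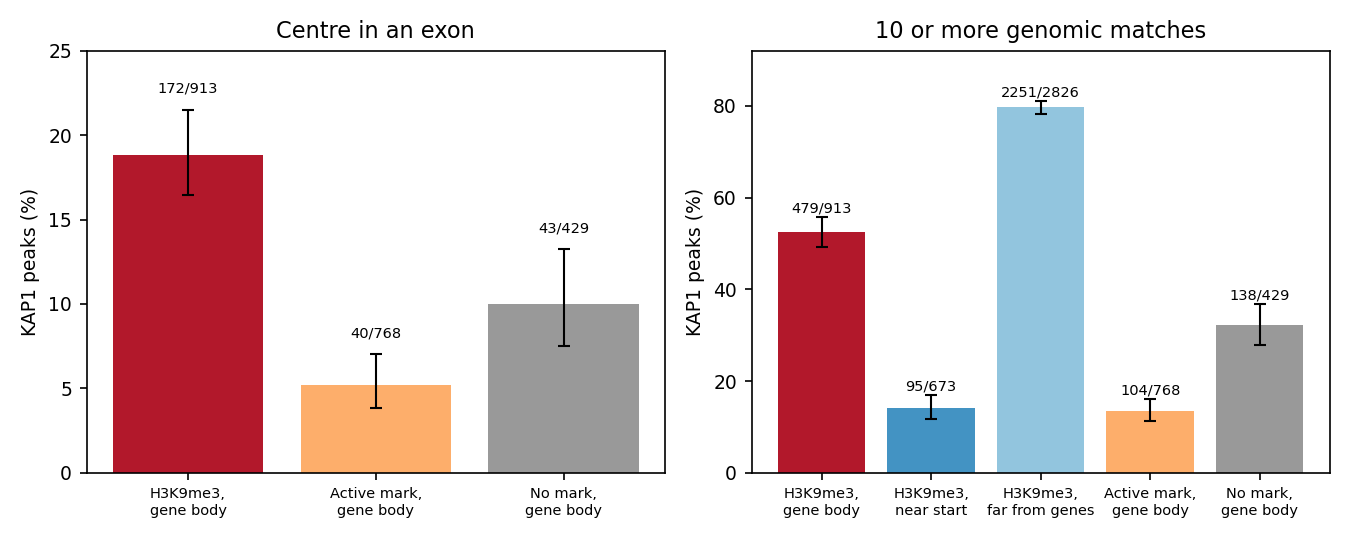
Share of KAP1 peaks (%) centred in an exon, for the 3 classes of gene-body peaks away from starts (left), and with 10 or more genomic matches of the central 300 bp, for 5 classes (right). Bars are shares, lines are 95% Wilson intervals and labels are counts. The sites in H3K9me3 inside gene bodies reach 18.8% in exons against 5.21% and 10.0%, and 52.5% with many matches, between the 79.7% outside genes and the 13.5% at active gene-body peaks.

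Most exonic sites lay near the 3′ ends of genes. The centre lay in a last exon at 140 of 172 (81.4%, 74.9 to 86.5%), and beyond 80% of the gene's length at 118 (68.6%, 61.3 to 75.1%). Intronic sites were spread along the gene, with 48 to 93 in each 10% of its length. Last exons make up 3.58% of the eligible bases, of the 5.51% in exons, and they held 28 of 40 exonic peaks with an active mark and 29 of 43 with no mark. Exonic peaks of the comparison classes were also near gene ends, with 30 of 40 at active gene-body peaks and 29 of 43 at peaks with no mark beyond 80% of the length. A position near the gene end was therefore common to exonic peaks of all 3 gene-body classes.

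**Figure D2:**
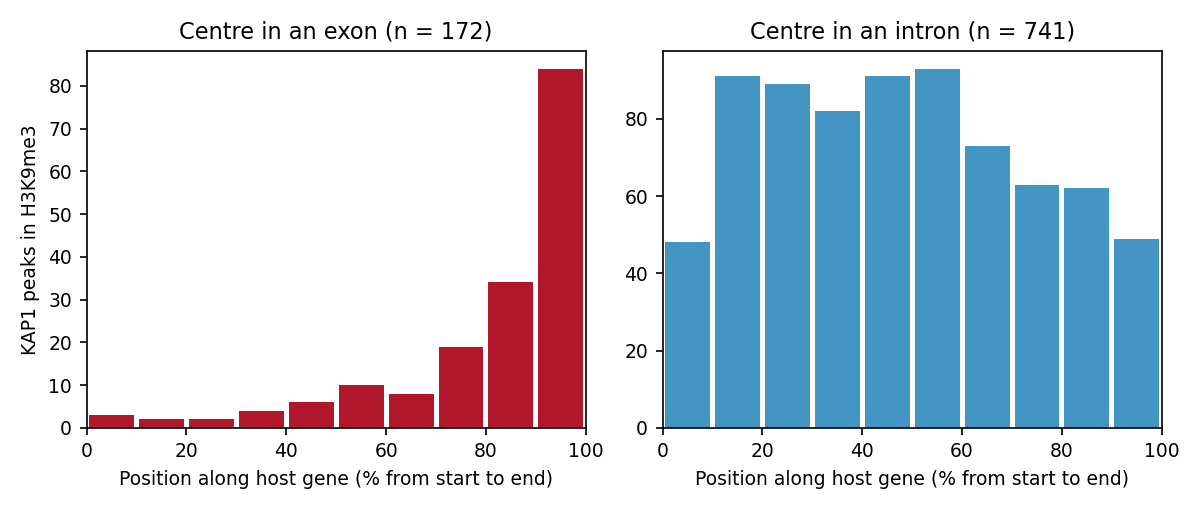
Position of the 913 sites along their host gene in steps of 10% (x axis, % of the length from start to end) against the number of sites (y axis), for 172 exonic (left) and 741 intronic centres (right). The last 10% holds 84 of the exonic and 49 of the intronic sites, and the first 10% is thinned by the 3 kb limit.

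Exonic sites also differed from intronic ones in the measures that described them. The median KAP1 score, the authors' value for the strength of a call, was 258 in exons and 113 in introns, and H3K9me3 covered a median of 86.9% and 62.6% of the peak. The exonic share was 6.56% among the 183 sites with the lowest scores and 36.1% among the 183 with the highest. The median G+C content of the central 300 bp was 58.7% in exons and 48.7% in introns. The sequence class itself differs in the same direction, since the eligible coding sequence holds 50.5% G+C and the introns 42.1%. Score and H3K9me3 were used to call or choose the sites, so these values are descriptions.

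Zinc finger genes, listed by symbol (Zfp, Zscan, Zkscan, Zbtb, Zik, Rex2 and Prdm9), had the highest share of hosts among the 8 gene lists. Of 440 such genes, 50 held a site (11.4%, 8.73 to 14.7%), beside 3.33% of all protein-coding genes. They held 53 sites, of which 47 were exonic, and all 47 lay in a last exon. A gene-body KAP1 peak with an active mark was held by 12 of the 440 (2.73%), near the 2.83% of all protein-coding genes. H3K9me3 covered a median of 100% of the 47 exonic peaks, within regions with a median width of 2375 bp. The corresponding width was 854 bp at intronic sites, and 324 bp over the whole H3K9me3 list, against which the widths at sites are partly fixed by the overlap that chose them. The median position was 91.1% along the gene, and the median KAP1 score was 307.

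The last exon of a C2H2 gene commonly encodes the finger array. The linker codons, searched on both strands as the degenerate 14-base pattern for that linker, were found in 37 of the 47 zinc finger exon peaks (78.7%, 65.1 to 88.0%), with a median of 5 and up to 18 matches in a peak. They were found in 17 of 125 exonic sites of other genes (13.6%), in 4 of 741 intronic sites (0.540%) and in 203 of all 12470 KAP1 peaks (1.63%). None of the 768 active gene-body peaks held a match, which allows a share of up to 0.391%, taking 3 counts of the total as the limit of a count of 0 here and below. Among sites near gene starts the share was 6.54% (44 of 673), beside 6.35% (58 of 913) for the sites inside genes, with overlapping intervals (4.91 to 8.66% and 4.95 to 8.12%).

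The 5 zinc finger sites with the highest scores were tied. Zfp697 (chr3:98230869-98233395), Zfp282 (chr6:47854093-47856038), Zfp787 (chr7:6083418-6085243), Zfp777 (chr6:47974089-47975822) and Zfp771 (chr7:134396759-134398677) were each scored 3100, a value at which 152 KAP1 peaks were tied, 13 of them among the sites. H3K9me3 covered all of the Zfp282, Zfp787 and Zfp777 peaks, within regions of 5609, 3850 and 8674 bp. All 5 sites lay in the last, coding exon, 89.1 to 96.9% along the gene. Their central 300 bp had 1 genomic match each, the site itself, except for Zfp787 with 3. At this same score the count of linker codons varied, since Zfp697 held 5, Zfp771 held 3, Zfp787 held 2 and Zfp282 and Zfp777 held none.

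The most linker matches, in sites named after their values were seen, were found at scores under 3100. Zfp808 held 18 linker matches at a score of 529, Zfp781 held 17 at 140 and Zfp960 held 16 at 663. Prdm9, which encodes the meiotic factor that places recombination hotspots through its zinc fingers, held 11 at a score of 307, with H3K9me3 over the whole of its 1585 bp peak. Zfp808 and Zfp960 had 240 and 249 genomic matches of the central 300 bp. Zfp781 had a counterpart of the same shape. A site in Gm3055, 159090 bp away on chromosome 10, had the same peak width of 3704 bp, the same 17 linker matches and the same relative position of 97.5%, at scores of 140 and 118.

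Exonic sites outside the symbol list included further finger genes. The 17 with linker codons were in Gm3055, Gm13212 and Gm13242, BC002059, 2610021A01Rik, AU041133, Mzf1, Scrt1, Scrt2 and others, most of them genes without a given name. Mzf1 encodes a myeloid zinc finger protein and held 2 linker matches at a score of 198. Scrt1 and Scrt2 encode the Scratch transcriptional repressors, which carry a finger array, and held 1 match each. The Scrt1 site (chr15:76348001-76350525) and the Scrt2 site (chr2:151918071-151920479) were both scored 3100, with 65.3% and 70.7% G+C in the central 300 bp. The next coding exon site outside the list lay in Cdh15, the gene of M-cadherin, which the annotated Gm20388 overlaps (chr8:125388495-125390175), at a score of 2801 and with no other genomic match.

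Of the 13 sites tied at 3100, 6 were intronic. The 10 sites named by score were taken from the tie by the wider H3K9me3 overlap, and the 3 intronic ones among them were in Spred2 (chr11:19919051-19921918), Trappc9 (chr15:72639291-72641898) and Arhgap10 (chr8:79972088-79973858), all at 3100. Spred2 encodes an inhibitor of Ras signalling and Arhgap10 a GTPase-activating protein, while Trappc9 encodes part of a vesicle tethering complex and hosts the imprinted Peg13 in an intron. H3K9me3 covered 88.8% of the Trappc9 peak and all of the other 2. The Arhgap10 centre had 29 genomic matches, and those of Spred2 and Trappc9 had none but themselves. None of these 3 overlapped a polymerase peak in either condition. The other intronic sites of the tie were in Habp4, Socs5 and Padi1, of which Habp4 overlapped a control PolII peak.

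Most intronic sites were copies of repeated sequence. The central 300 bp of a site was aligned to the genome, and matches of at least 150 bp at 80% identity or more were counted, the site included and with at most 100 per chromosome, so high counts are lower limits. Of the 913 sites, 479 (52.5%, 49.2 to 55.7%) had 10 or more matches, 69 had 2 to 9 and 365 (39.98%) only themselves. Introns held 452 of the 479. The share was 61.0% in introns and 15.7% in exons.

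In this respect the sites lay between the other classes. Outside genes, 2251 of 2826 KAP1 peaks in H3K9me3 (79.7%) had 10 or more matches, and the odds ratio of the gene-body sites against them was 0.282 (0.241 to 0.330, adjusted Fisher's exact p = 7.5e-54). Active gene-body peaks had 104 of 768 (13.5%), an odds ratio of 7.05 (5.52 to 8.99, adjusted Fisher's exact p = 1.7e-65). Near gene starts the share was 14.1%. The intronic subset, at 61.0% (57.4 to 64.4%), was still below the 79.7% (78.1 to 81.1%) outside genes, though this pair was not tested. No repeat annotation was used, so the copies are not assigned to named elements.

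**Figure D3:**
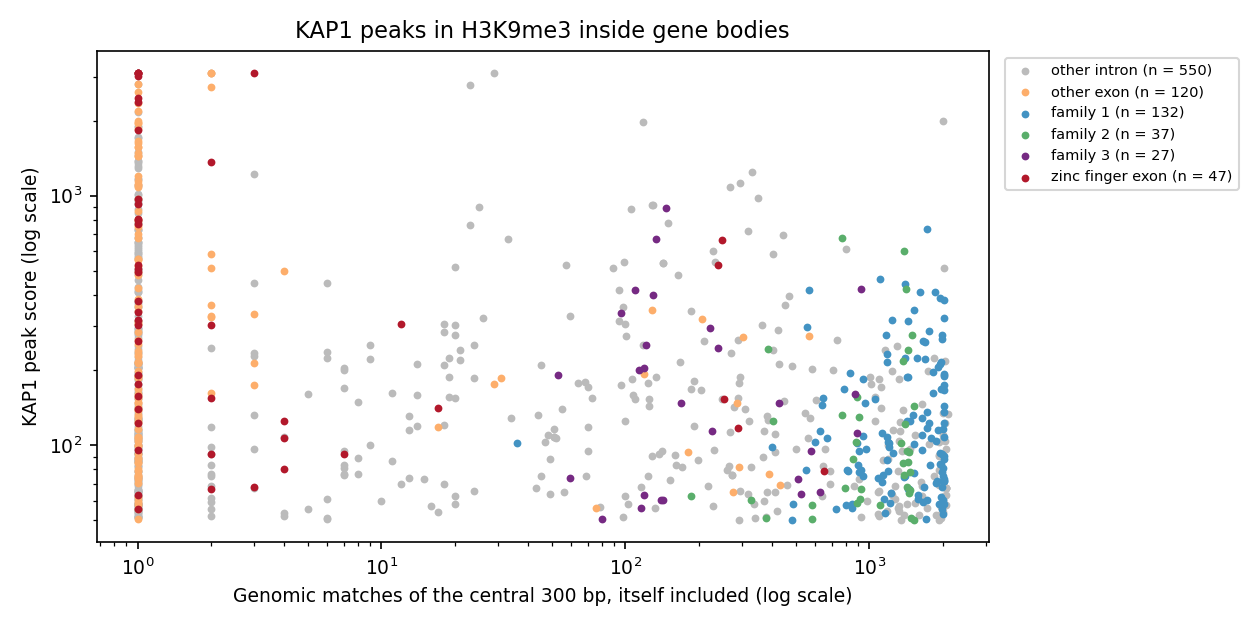
KAP1 score (y axis, log scale) against the number of genomic matches of the central 300 bp (x axis, log scale, itself included) for the 913 sites, coloured by family, zinc finger exon, other exon or other intron. Of the 13 sites tied at 3100, 12 sit at 1 to 3 matches, while 128 of 132 sites of family 1 and 32 of 37 of family 2 sit at 500 matches or more.

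Aligned with each other in the same way, 394 sites (43.2%) joined 48 groups of related sequence, and 519 stood alone. Family 1 held 132 sites in 103 genes, 129 of them intronic, with a median of 1552 matches and a median KAP1 score of 103. Family 2 held 37 sites in 33 genes with 1352 matches and a score of 85.4, and family 3 held 27 sites in 27 genes with 142 matches and a score of 148. The highest-scoring sites of family 1 were in introns of Ccdc41 (score 734), Mctp1 (464) and Rev3l (442), those of family 2 in Galk2 (675), Tbxas1 (600) and Mtmr2 (421), and those of family 3 in Serpinb3b (893) and Atp6v0a4 (672). The sequence of family 1 was CpG-rich for intronic DNA, with a median observed to expected CpG ratio of 0.81 in the central 300 bp, against 0.70 in family 2 and 0.45 in family 3. Its H3K9me3 cover was low, at a median of 46.0% of the peak, against 60.1% and 60.0%.

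The 30-base runs printed above allowed every exact copy to be followed in the genome. The run of family 1 had 2597 exact copies, 484 of them in eligible gene bodies and 2062 outside genes. KAP1 overlapped 91 of the 484 (18.8%, 15.6 to 22.5%) and 343 of the 2062 (16.6%, 15.1 to 18.3%). H3K9me3 overlapped 156 (32.2%, 28.2 to 36.5%) and 524 (25.4%, 23.6 to 27.3%). Most copies identical over these bases thus carried no KAP1 call. How reads from repeated sequence were placed is not known, so a missing call does not show that KAP1 was absent. The runs were picked from the sites, so the KAP1 and H3K9me3 shares of gene-body copies are partly fixed by that choice. Family 2 had 312 copies, of which KAP1 overlapped 13 of 37 in gene bodies (35.1%, 21.8 to 51.2%) and 65 of 271 outside genes (interval 19.3 to 29.4%). Family 3 had 61 copies, of which KAP1 overlapped 11 of 17 (64.7%, 41.3 to 82.7%) and 24 of 42 (57.1%, 42.2 to 70.9%). The KAP1 intervals inside and outside genes overlapped in all 3 families, whereas the H3K9me3 intervals of family 1 did not, which the choice of the run partly fixes. No copy of the 3 runs in a gene body overlapped a control PolII peak, which for the 484 copies of family 1 allows a share of up to 0.620%. Outside genes no copy overlapped a control PolII peak either (0 of 2062, 0 of 271 and 0 of 42). A Kap1 KD PolII peak overlapped 5 of 484 (1.03%), 1 of 37 and 1 of 17 copies in gene bodies. Outside genes it overlapped 17 of 2062 (0.824%), 1 of 271 and 0 of 42.

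**Figure D4:**
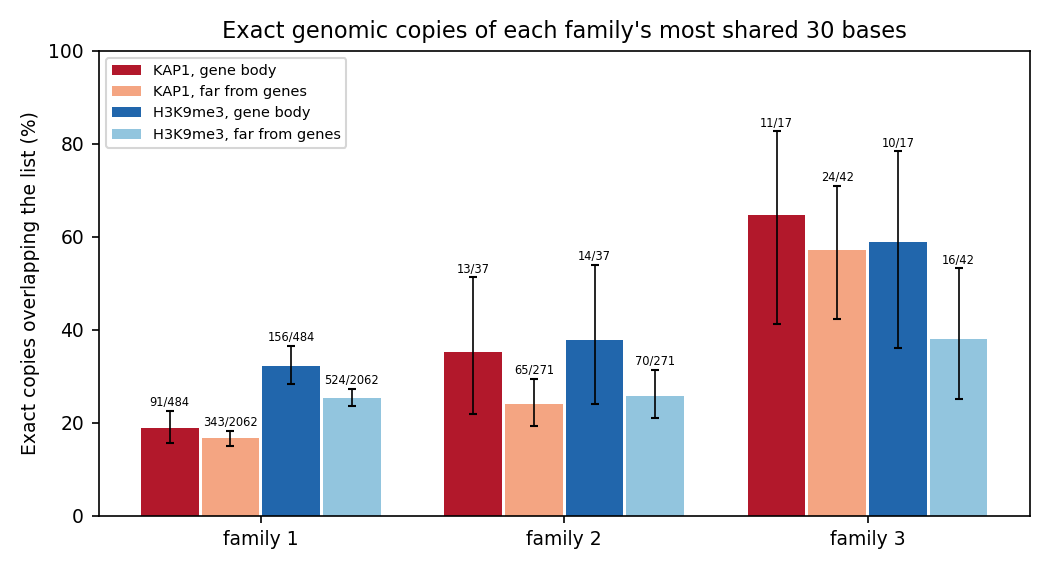
Exact genomic copies of the most shared 30 bases of families 1 to 3 (x axis) that overlap a KAP1 peak or an H3K9me3 region (y axis, %), in gene bodies away from starts and outside genes. Lines are 95% Wilson intervals and labels are counts. KAP1 overlaps 91 of 484, 13 of 37 and 11 of 17 copies in gene bodies and 343 of 2062, 65 of 271 and 24 of 42 outside genes, with overlapping intervals within each family.

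Within each family, most copies lay in the same orientation to the host gene. The printed run of family 1 lay on the strand opposite to the host gene at 70 of the 81 sites that held it and could be oriented (86.4%, 77.3 to 92.2%). Of all its copies in gene bodies, whether or not KAP1 was called there, 384 of 483 were on the opposite strand (79.5%, 75.7 to 82.9%). Neighbouring copies in the same gene were counted separately, and the intervals treat them as independent. The runs of families 2 and 3 lay mostly on the strand of the host gene, at 11 of 12 and 8 of 9 sites and at 30 of 37 and 15 of 17 gene-body copies. The strand printed for a family is arbitrary, so the directions cannot be compared between families.

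Most host genes held a single site, 603 of 745, while 108 held 2 and 34 held more. Arfip1, C1s, Ccdc11, Fgfr2 and Sox5 held 6 each, Gm20388 and Mctp1 held 5, and Ankrd6 was first by name among 5 genes with 4. All 6 sites of C1s, a complement protease gene expressed in liver, were intronic, within a gene model of 106636 bp. Their scores ran from 96.4 to 1969 with a median of 669, and 5 of the 6 had 10 or more matches. In Sox5, a transcription factor gene of 953553 bp, all 6 were intronic and none had 10 or more matches, with scores of 65.2 to 931. The Mctp1 sites were all multi-copy, with 847 to 1527 matches, and 4 of them lay between 17.2 and 18.2% of the gene's length. Fgfr2 spans 3009069 bp and Gm20388 spans 4434882 bp in this annotation, against a median of 90783 bp over the host genes.

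No gene list, the zinc finger list included, was tested for enrichment. A site was held by 13 of 355 solute carriers (3.66%), 2 of 60 serpins (3.33%), 3 of 98 cytochromes P450 (3.06%), 2 of 36 protocadherins (5.56%, with 5 sites) and 1 of 1441 olfactory and vomeronasal receptor genes (0.0694%), beside 3.33% overall. A gene body wholly within 3 kb of a start could not hold a site, and the lists were not matched for gene length. With peaks near the start included, 3 of the 1441 receptor genes (0.208%) held a KAP1 peak in H3K9me3, against 5.56% of all protein-coding genes. None of 13 genes for KAP1 and its partners, SETDB1 and the HP1 proteins among them, held a site. Of 22 imprinted genes, 2 held a site (9.09%). Kcnq1, a potassium channel gene whose intron contains an imprinting centre, held 2 intronic sites (chr7:150421868-150424840 and chr7:150436249-150437302) at scores of 166 and 73.2. Grb10, an adaptor of growth factor signalling, held 1 in a last exon outside coding sequence (chr11:11832504-11833656) at 99.5. With peaks near the start included, 13 of the 22 held a KAP1 peak in H3K9me3 within the gene (59.1%), against 5.56% of all protein-coding genes, and 11 of them held such a peak only within the 3 kb excluded here.

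PolII was rare at the sites. A control PolII peak was present at 9 of 913 (0.986%, 0.519 to 1.86%), beside 16.8% of all KAP1 peaks, and a Kap1 KD PolII peak at 35 (3.83%, 2.77 to 5.28%), beside 28.6%. Gene-body peaks with no mark were also low, with 7 of 429 (1.63%, 0.793 to 3.33%) and 13 (3.03%, 1.78 to 5.11%). Active gene-body peaks had 105 of 768 (13.7%) and 270 (35.2%). The odds ratios of the sites against them were 0.0629 (0.0316 to 0.125, adjusted Fisher's exact p = 5.3e-27) and 0.0735 (0.0508 to 0.106, adjusted p = 1.5e-65). That class was chosen for H3K27ac or H3K4me1, marks that go with PolII.

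Against KAP1 peaks in H3K9me3 elsewhere, no difference passed the test. In the control, near-start peaks had 7 of 673 (1.04%) and peaks outside genes 26 of 2826 (0.920%), with odds ratios of 0.947 (0.351 to 2.56, adjusted Fisher's exact p = 1) and 1.07 (0.501 to 2.30, adjusted p = 0.91). Under Kap1 KD they had 15 (2.23%) and 84 (2.97%), with odds ratios of 1.75 (0.947 to 3.23, adjusted Fisher's exact p = 0.12) and 1.30 (0.871 to 1.94, adjusted p = 0.25). The counts are small and the intervals wide, so these values do not show that the classes are alike. Without chromosome 3 the first of the Kap1 KD odds ratios was 2.05 with an adjusted p of 0.038.

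**Figure D5:**
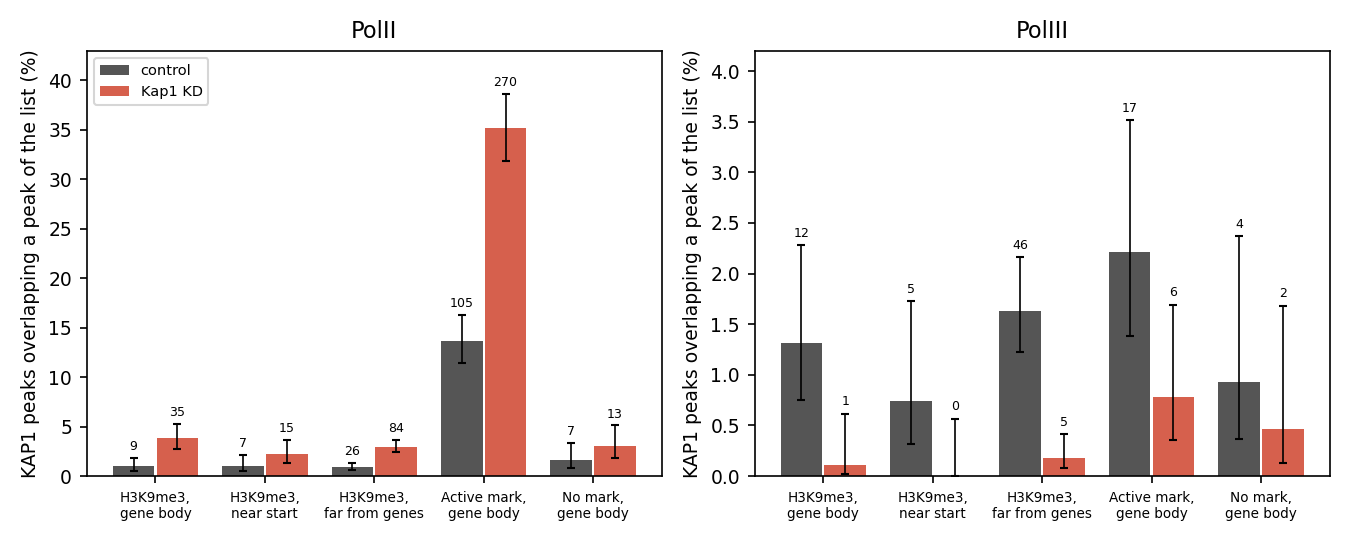
Share of KAP1 peaks (y axis, %) overlapping a PolII peak (left) or a PolIII peak (right) in the control and under Kap1 KD, for 5 classes of KAP1 peaks. Lines are 95% Wilson intervals and numbers are counts of peaks, with 1 library behind each list. At the sites in H3K9me3 inside gene bodies PolII counts are 9 and 35 and PolIII counts 12 and 1, and the active gene-body class stands above all others for PolII.

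Between the conditions, 6 sites had PolII in both, 3 in the control only and 29 under Kap1 KD only. The ratio of the counts was 3.89 at the sites, 2.14 near starts, 3.23 outside genes, 2.57 at active gene-body peaks and 1.86 at gene-body peaks with no mark. The PolII list itself grew from 5015 to 12862 peaks, and depth and condition cannot be told apart with 1 library each. PolIII was found at 12 sites in the control (1.31%, 0.753 to 2.28%, beside 2.63% of all KAP1 peaks) and at 1 under Kap1 KD (0.110%, 0.0193 to 0.618%, beside 1.51%). The list went from 2772 to 431 peaks, a fall that lay on chromosomes 1 to 4 (2480 to 89), since the other chromosomes had 292 and 342. All 12 control overlaps were on chromosomes 1 to 4, and the other chromosomes gave 0 of 646, which allows a share of up to 0.464%. Against KAP1 peaks in H3K9me3 outside genes, with 46 of 2826, the odds ratio was 0.805 (0.425 to 1.53, adjusted Fisher's exact p = 0.76). Without chromosomes 1 to 4 the counts were 0 of 646 and 2 of 1957 (0.102%), too few to compare.

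The highest-scoring sites with control PolII were in Zfp697, Habp4 and Pvrl3. In the Zfp697 last exon, a control PolII peak of 983 bp (authors' score 39) lay within the KAP1 peak, and none was listed under Kap1 KD. The intron site of Habp4, the gene of hyaluronan-binding protein 4 (chr13:64270448-64272054), had a control peak of 323 bp at a score of 26 and none under Kap1 KD. In Pvrl3, the gene of nectin-3 (chr16:46462873-46463876), the PolII peak was 146 bp wide with a score of 34 in the control and 411 bp wide with a score of 78 under Kap1 KD.

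At the other end, Zfp771, Maff and Zfp672 led the sites with PolII under Kap1 KD only. All 3 lay in a last coding exon. The PolII peaks were 1778, 4737 and 2896 bp wide at scores of 114, 240 and 156. Maff encodes a small Maf transcription factor (KAP1 peak at chr15:79186665-79189145), and an active mark began 281 bp from its KAP1 peak. The Zfp672 PolII peak ran on beyond the KAP1 peak (chr11:58129195-58130853). The Kcnq1 site within the widest PolII peak lay in 17424 bp of PolII in the control and 20629 bp under Kap1 KD, at scores of 666 and 1328, and its neighbour lay in 1417 and 3078 bp.

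Some of the PolII overlaps under Kap1 KD fell on duplicated sequence. In 3 pairs of sites, picked out after their values were seen, the PolII peaks had the same width and the same score and their sequences were identical over the full length. These were 201 bp at a score of 24 in a pair within Sox5, 222 bp at 27 in a pair within Srpk2, and 482 bp at 28 in Gm6205 and Gm6367. The distances between the copies were 2924, 2931 and 340312 bp on the same chromosome. The KAP1 scores of the first pair were 197 and 65.2, those of the second 316 and 79.4, and those of the third 57.6 and 50.6. These pairs account for 6 of the 35 sites with Kap1 KD PolII, and their part in the count was not tested.

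The 3 highest-scoring sites with PolIII were in Iars2, Xkr5 and Hhat. The intron of Iars2, a mitochondrial tRNA synthetase gene (chr1:187129778-187130882), had a control PolIII peak of 290 bp at a score of 14. The last exon of Xkr5 (chr8:18933240-18934310) held the single PolIII overlap under Kap1 KD, 1945 bp at a score of 18. The Hhat site, in an exon of the Hedgehog acyltransferase gene (chr1:194453463-194454647), had 1664 bp of control PolIII at 37 and 186 bp of Kap1 KD PolII at 18. A second Iars2 site at a KAP1 score of 54.0 overlapped PolII in both conditions and PolIII in the control.

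The promoters of host genes were set beside those of all protein-coding genes. Within 250 bp of the gene's 5′ end, H3K27ac was present at 167 of the 745 host genes (22.4%), beside 20.0% of all protein-coding genes, and control PolII at 98 (13.2%), beside 13.1%. Kap1 KD PolII was present at 182 (24.4%), beside 23.3%. Host genes were long, with a median of 90783 bp against 15427 bp, and among the 2673 protein-coding genes longer than the median host these shares were 16.5, 9.43 and 18.3%. H3K9me3 was present at 94 (12.6%), beside 5.24% of all protein-coding genes and 7.56% of those longer than the median host. Host genes were themselves chosen through an H3K9me3 overlap inside the gene. Among the 50 zinc finger hosts, H3K27ac was present at 17 (34.0%), control PolII at 11 (22.0%) and Kap1 KD PolII at 21 (42.0%). Over all 440 zinc finger genes the shares were 29.5, 18.6 and 34.1%.

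Genes with such a site only were set against genes with an active gene-body KAP1 peak only, whose median lengths were 75511 and 75429 bp. H3K27ac was present at 134 of 613 promoters (21.9%, 18.8 to 25.3%) and at 160 of 502 (31.9%, 27.9 to 36.1%), an odds ratio of 0.598 (0.457 to 0.782, adjusted Fisher's exact p = 0.00032). Control PolII was present at 79 (12.9%) and 97 (19.3%), an odds ratio of 0.618 (0.447 to 0.854, adjusted Fisher's exact p = 0.0062). The classes were chosen by active marks at the peak, though more than 3 kb from the promoter. The H3K27ac difference did not pass the test for KAP1 peaks above the median score (odds ratio 0.848). Neither difference passed it in genes longer than the median host gene (0.644 and 0.875) or with 10 kb in place of 3 kb (0.736 and 0.704).

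The nearest other KAP1 peak was a median of 27351 bp away, beside 26679 bp over all KAP1 peaks. Another of the 913 lay within 10 kb at 16.9% of sites, and over all KAP1 peaks 15.6% had another of their own class as near, with 25.1% outside genes and 8.62% near starts in H3K9me3, 9.77% at active gene-body peaks and 1.40% at those with no mark. The nearest of the same class lay a median of 295228 bp away at the sites and 156419 bp over all KAP1 peaks. Of the sites, 816 touched a single H3K9me3 region, and in 603 (66.0%) H3K9me3 covered at least 50% of the peak, while 25 touched it over fewer than 100 bp. The nearest H3K27ac or H3K4me1 region lay a median of 12126 bp away, and within 1 kb at 47 sites (5.15%). Across the 3 kb limit, the sites just inside were in Tcf7l2 at 3025 bp from a start (score 96.9) and Wdr16 at 3028 bp (216). The peaks just outside were in Zfp958 at 2994 bp (316) and Serpinb2 at 2989 bp (147).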

How the data were processed

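ChIP-seq data of Hepa 1-6 cells were used as deposited peak lists, 1 library each for KAP1, H3K9me3, H3K27ac and H3K4me1 in standard culture and for PolII and PolIII in control and Kap1 KD cells. Reads were mapped with Bowtie to mm9. Per the study's methods, MACS with the input as background gave the peaks of KAP1 and of PolII, and ChIP-Part the histone mark regions, while the caller of PolIII, and all options, were not given in the sources used here. The deposited lists give positions, with a score for each KAP1 peak taken to be that of MACS and a whole-number polymerase score of unstated meaning. They hold no read counts. The 5 inputs have no list and were not analysed here.

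Groups followed the antibody and cell labels. Positions count from 1. The annotation was GENCODE M1 on NCBIM37, with which the coordinates of the lists are compatible. The central 300 bp of every KAP1 peak was aligned to the genome with blastn 2.17.0 (word size 24), keeping matches over at least 150 bp and 50% of the window at 80% identity or more and at most 100 matches per chromosome. Shares of classes of peaks were compared by two-sided Fisher's exact tests with Woolf intervals, adjusted over 13 tests at a threshold of 0.05 (scipy 1.17.1). Overlap code was tested on simulated intervals. Named sites were the 10 with the highest KAP1 score, the 3 highest for each polymerase pattern, the 5 highest in zinc finger genes and the 3 highest in coding exons of other genes, the 2 on each side of the 3 kb limit, the 8 genes with the most sites, and host genes of the partner and imprinted lists. The sites, lists and tests were chosen with earlier results of these data known. A planned comparison of masked repeats was not run, since the genome used carries no repeat masking. A further gene of the hepatocyte marker list is not reported here.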

Additional observations from a re-analysis of the deposited data

Results flagged for a closer look

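The 2 polymerases moved in opposite directions at the sites between control and Kap1 KD cells. PolII was present at 9 sites in the control and at 35 under Kap1 KD, a difference of 26, whereas PolIII was present at 12 and 1, a difference of -11. The shares over all KAP1 peaks moved in these directions too, with control and Kap1 KD values of 16.8% and 28.6% (PolII) and of 2.63% and 1.51% (PolIII). Each list comes from 1 library, and the difference was not tested. The PolII list went from 5015 to 12862 peaks and the PolIII list from 2772 to 431. Off chromosomes 1 to 4 both lists grew, PolII from 3741 to 9601 peaks and PolIII from 292 to 342. There, PolII was present at 6 and 25 of 646 sites and PolIII at 0 and 1.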

How the results depend on the processing

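No paired analysis was possible because each group holds 1 library. Under the alternative settings the 13 comparisons gave 139 values, of which 118 kept their direction and side of the threshold. The exon comparisons, the multi-copy comparisons and the PolII comparisons with active gene-body peaks kept both throughout, at odds ratios of 1.62 to 7.93 and 1.37 to 2.65 for exons and 0.0429 to 0.0800 for PolII in both conditions. Comparisons of polymerases among KAP1 peaks in H3K9me3, none of which passed the test as reported, changed direction in 15 of these values and did not pass it then. These include only the lowest and highest values over chromosomes left out in turn, and over all such runs control PolII changed direction 3 times against near-start peaks and 4 times against peaks outside genes. Against near-start peaks, control PolII gave odds ratios of 3.15 with overlap over 50% of the peak and 1.31 without chromosome 2, and Kap1 KD PolII gave 0.949 at 10 kb and 0.939 with genes of every biotype. Against peaks outside genes, control PolII gave 0.771 above the median KAP1 score, 0.943 at 1 kb, 0.999 at 10 kb, 0.848 with every biotype, 0.980 with clustered peaks counted once, 0.847 without chromosome 7 and 0.952 with polymerase peaks above the median score. Control PolIII gave 1.24 with overlap over 50%, 1.36 for 500 bp around the centre, 1.03 at 10 kb and 1.04 with clustered peaks counted once. Kap1 KD PolII against near-start peaks passed the test at 2.05 without chromosome 3. At host promoters, H3K27ac did not pass it above the median score (0.848), at 10 kb (0.736) or in long genes (0.644), and PolII did not at 10 kb (0.704) or in long genes (0.875). Fewer genes entered these fits, and the cause was not tested. Masked repeat comparisons and, for host promoters, genes of every biotype were not run. Depth could not be assessed from peak lists.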
